A study of Mus musculus with 12 samples.

Results

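The cell lines compared here differ in the LDB1 construct they express, and were compared across all genes: 3 libraries with full-length LDB1 (FL) against 3 libraries with the delta 4/5 form (delta45). These 6 libraries are part of a series of 12, all of polyadenylated RNA from induced MEL cells. MEL is a mouse erythroleukemia cell line in which inducing agents start late erythroid differentiation. Both FL and delta45 cells also carry the LDB1 knockdown, so each construct is read on top of reduced LDB1 of the cells' own. The other libraries are 3 of control MEL cells and 3 of knockdown cells without a construct (KD). Their values are given beside the comparison. They also entered the statistical fit, so their scaling and spread contribute to every test of FL against delta45. The labels name neither the inducing agent nor the time of induction, the number of clones behind a line, or separate cultures. The p-values therefore cover only how far the 12 libraries vary within their groups, and that variation may be technical.

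LDB1 binds LIM-domain proteins and, through LMO2, joins the DNA-binding factors GATA1 and TAL1 in one complex on erythroid genes. It also binds itself through a dimerisation domain, which lets complexes on a distant enhancer and on a promoter meet, as in the beta-globin locus. The delta 4/5 form lacks a stretch of that domain. RNA counts do not show whether this form still dimerises or still brings enhancer and promoter together. The series addresses the step from a chromatin loop to active transcription, and this comparison asks which transcripts separate the full-length from the shortened protein.

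Reads assigned to genes ranged from 9780096 to 20464959 in these 6 libraries. The tally of alignments that were not unique made up 38.7 to 39.2% of all tallied counts in delta45 and 42.3 to 47.1% in FL. That tally may hold a read more than once, and whether this gap moves any gene was not tested. Replicate 1 stood apart from the other 2 in both lines: its chi-square per degree of freedom against them was 10.2 to 10.8 in delta45 and 13.3 to 14.7 in FL, against 2.18 and 3.79 between replicates 2 and 3. On the second principal component, which held 26.6% of the variance over all 12 libraries, FL lay between 52.9 and 54.1 and delta45 between -42.3 and -41.8. Gata1, Tal1 and Alas2, which mark erythroid cells, were read in every library. In bulk RNA, fewer cells of a type and less RNA per cell cannot be told apart.

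Ldb1 itself (ENSMUSG00000025223) was read at 750.4, 781.2 and 764.0 CPM (reads scaled to a common library size, with TMM factors) in the delta45 libraries. It stood at 3696, 3411 and 3210 CPM in FL, so the lines did not overlap. FL was 4.49-fold above delta45 (log2 difference 2.17 ± 0.158 SE, edgeR adjusted p = 1.25e-07). Control held 718 ± 71.2 CPM and KD 130 ± 31.1 CPM (SD, n = 3). The amount of Ldb1 mRNA thus differs between the lines together with the form of the protein, and for every result below the 2 cannot be told apart. Neither can be told apart from any other difference between the lines, since the labels do not give the clones or cultures behind each. The counts do not separate reads of a construct from those of the cells' own gene.

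The lines differed in a large part of the transcriptome. Of 12837 genes tested, 6778 (52.8%) passed edgeR's quasi-likelihood test at a Benjamini-Hochberg adjusted p under 0.05: 3310 (25.8%) were higher in FL and 3468 (27.0%) higher in delta45. Against a 1.5-fold change, 3233 genes (25.2%) passed, 1452 (11.3%) higher in FL and 1781 (13.9%) higher in delta45. The libraries of the 2 lines did not overlap for 8855 genes (69.0%), with FL higher for 4332 (33.7%) and delta45 higher for 4523 (35.2%). Called differences over 8-fold numbered 132 with FL higher and 145 with delta45 higher. No gene was without reads in one line and at 5 CPM or more in the other. With scaling by library totals only, 29.2% in place of 48.83% of the called genes were higher in FL, and the median of all genes moved from -0.005 to -0.28 on the log2 scale.

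Functions were read from 41 gene lists, each described by how many tested members passed and by its median log2 difference (FL minus delta45). These counts are to be read against the shares of all genes given above. At one end stood the globins, with a median of 3.28, and genes of glycolysis and the hypoxia response, with 2.05. At the other stood mitosis with -2.30, replication with -2.26, DNA repair with -1.83 and ribosome biogenesis with -1.14. Lists for the Pol II and Mediator machinery, chromatin looping and the proteasome had medians of 0.11, 0.01 and 0.10. Of 58 Pol II and Mediator genes 12 were higher in FL and 10 higher in delta45 (7 and 22 with library totals only), and of 19 looping genes 4 and 6. The bars for each list set this order against all genes.

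**Figure D1:**
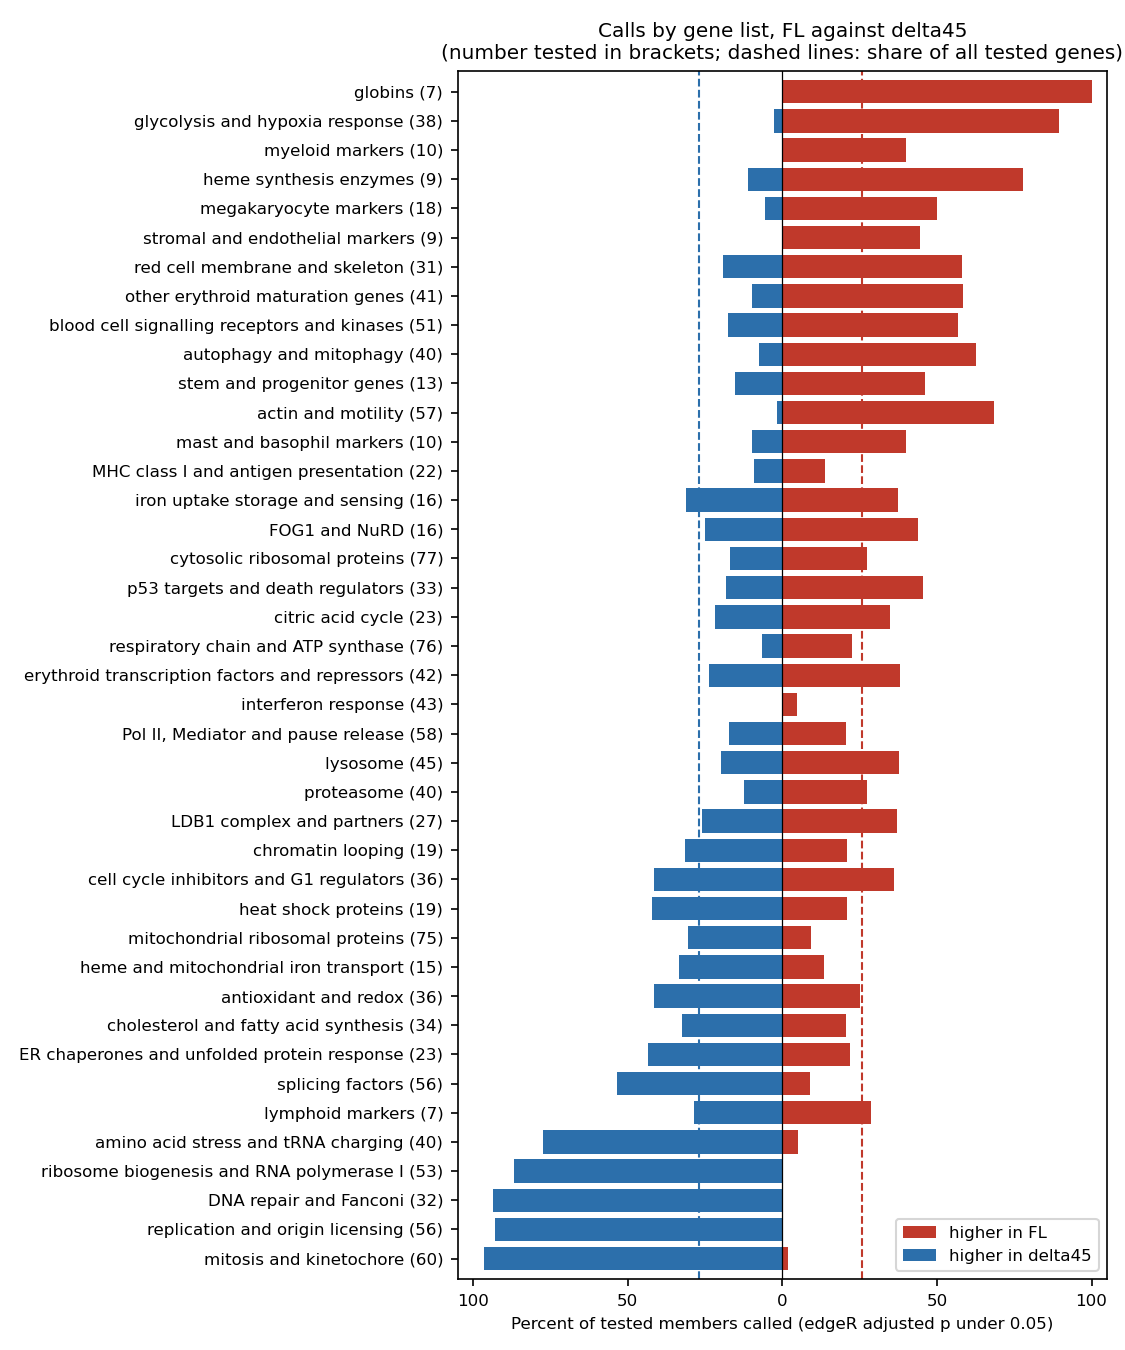
Share of tested members called higher in FL (red, to the right) and higher in delta45 (blue, to the left) for 41 gene lists, ordered by median log2 difference; the x axis is percent of tested members, and dashed lines mark the shares among all tested genes (25.8% and 27.0%). All 7 globins were higher in FL, while 58 of 60 mitosis genes and 52 of 56 replication genes were higher in delta45.

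Globin mRNA was higher with full-length LDB1, for each of the 7 globin genes tested. Hba-a1 (ENSMUSG00000069919), the adult alpha chain, was at 629.3, 807.2 and 870.8 CPM in delta45 and at 7655, 10690 and 10530 CPM in FL. The lowest FL library was thus well above the highest delta45 library, and the mean was 12.5-fold higher (log2 3.65 ± 0.245, edgeR adjusted p = 5.91e-08). Hbb-bs (ENSMUSG00000052305), an adult beta chain, was at 626.5, 652.6 and 645.2 CPM in delta45 and 7169, 11230 and 10340 CPM in FL. FL replicate 1 was the lowest FL library for both genes, and it still lay above every delta45 library. Hbb-bs differed 14.9-fold (log2 3.90 ± 0.383, edgeR adjusted p = 2.08e-06), and its near-identical neighbour Hbb-bt 42.1-fold (log2 5.40 ± 0.198, adjusted p = 8.65e-10). The adult alpha genes are near-identical to each other, as are Hbb-bs and Hbb-bt, and reads can be lost or placed on the wrong copy, so each copy's value is uncertain. The theta-globin gene Hbq1b stood at 20.3 ± 2.15 CPM in delta45 and 83.4 ± 7.24 CPM in FL (SD, n = 3). Few reads fell on Hba-a2 (6.78 CPM in FL and 34 reads over the delta45 libraries), Hbq1a (2.06 CPM and 30 reads) or the embryonic Hba-x (0.839 CPM and 5 reads). The embryonic beta-type genes Hbb-y and Hbb-bh1 stayed under 1 CPM in all 6 libraries and were not tested. Summed globin CPM ran from 1354 to 1645 in delta45, 18680 to 26130 in FL, 1020 to 2128 in KD and 8032 to 8276 in control.

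Heme synthesis, which supplies the prosthetic group of globin, followed with 7 of 9 enzymes higher in FL, 1 lower and a median of 1.18. Alas2 (ENSMUSG00000025270), the erythroid enzyme that starts the pathway, was at 309.1, 288.7 and 318.4 CPM in delta45 and 4784, 5144 and 5570 CPM in FL. That is 16.9-fold (log2 4.08 ± 0.198, edgeR adjusted p = 4.16e-09) with no overlap. The later enzymes differed less: Fech, which inserts the iron, by 3.35-fold, Ppox by a log2 of 1.18, Urod by 1.29, Cpox by 1.08 and Alad by 1.06. Uros went the other way, at 75.7 ± 1.76 CPM in delta45 and 38.7 ± 4.07 CPM in FL. Carriers that move heme and iron across mitochondrial and other membranes were not raised as a list. Of 15 tested, 2 were higher in FL and 5 higher in delta45, among them the mitochondrial iron importer Slc25a37 (126 and 61.7 CPM in delta45 and FL) and the heme exporter Flvcr1 (61.1 and 30.4 CPM).

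The proximal promoters of Alas2 and Hbb-bs are printed because both genes differed by more than 10-fold and each window holds a GATA match. They are RefSeq sequences of build GRCm38.p6, 250 bases before the annotated start, read 5′ to 3′ on the gene's strand, with the letters AGATAA on either strand in capitals. Alas2 lies on the plus strand (chrX:150547167-150547416) and Hbb-bs on the minus strand (chr7:103827929-103828178).
Alas2: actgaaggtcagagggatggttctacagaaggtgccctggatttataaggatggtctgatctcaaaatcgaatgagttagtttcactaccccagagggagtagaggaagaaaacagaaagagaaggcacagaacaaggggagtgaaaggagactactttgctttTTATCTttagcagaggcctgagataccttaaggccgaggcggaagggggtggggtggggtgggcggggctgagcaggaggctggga
Hbb-bs: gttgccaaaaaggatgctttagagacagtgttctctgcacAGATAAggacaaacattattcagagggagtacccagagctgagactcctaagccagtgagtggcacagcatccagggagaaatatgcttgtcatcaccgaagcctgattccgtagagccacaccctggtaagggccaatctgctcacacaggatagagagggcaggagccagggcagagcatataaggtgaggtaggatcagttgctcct
The authors' counts use build mm9, so these windows were not placed on their data. The 6 promoters printed here and further on were chosen after matches had been seen. AGATAA occurred in 6.01% of 9094 such promoters of tested genes. Its share was 6.11% for genes past 1.5-fold with FL higher and 6.77% for those with delta45 higher. In the list for the red cell membrane and skeleton 6 of 23 promoters held it (26.1%), and among globins 1 of 7 (14.3%). A match is a description of letters, not a bound site.

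**Figure D2:**
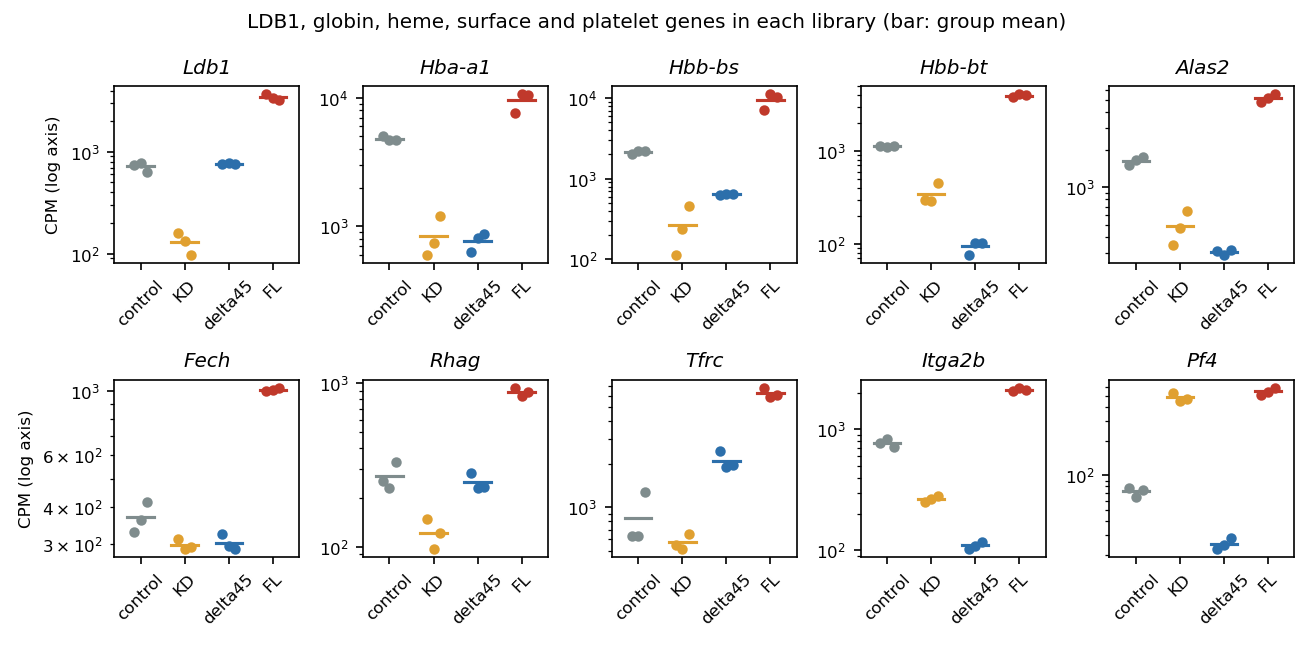
CPM (log axis) of 10 genes in each of the 12 libraries, 3 per group, with a bar at the group mean. Ldb1, the 3 globins, Alas2, Fech, Rhag, Tfrc, Itga2b and Pf4 show no overlap between FL and delta45; Pf4 averaged 484 CPM in KD, near the 546 CPM of FL, and 25.04 CPM in delta45.

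Iron handling split. Tfrc, the transferrin receptor that takes up iron, was at 2485, 1913 and 1961 CPM in delta45 and 6802, 5921 and 6115 CPM in FL. Both lines were above control (849 ± 374 CPM) and KD (569 ± 71.9 CPM) in mean level. The difference between the lines was 2.96-fold (log2 1.57 ± 0.237, edgeR adjusted p = 9.89e-05). Fth1 (ferritin heavy chain, log2 1.33), the ferritin adaptor Ncoa4 (1.78) and Exoc6 (1.31) were higher in FL too. Erfe, the hormone by which erythroblasts lower hepcidin, was at 58.0 CPM in delta45 and 11.3 CPM in FL. Steap3, which reduces endosomal iron, was at 166 and 53.3 CPM, and the iron exporter Slc40a1 at 67.8 and 25.5 CPM. In the whole list of 16 tested genes, 6 were higher in FL and 5 higher in delta45 (5 and 6 with library totals only).

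Red cell membrane and skeleton genes gave 18 of 31 higher in FL and 6 higher in delta45, with a median of 0.94. FL libraries were all above delta45 for Rhag (means of 247.9 in delta45 and 886.7 CPM in FL), the tropomodulin Tmod1 (59.2 and 215.0 CPM), the adducin Add1 (320.0 and 808.7 CPM) and the skeleton linker Epb41 (421.1 and 916.3 CPM). Slc4a1, the anion exchanger band 3, stood at 1.99 ± 0.176 CPM in delta45 and 30.5 ± 0.445 CPM in FL, and was chosen after its values were seen. Beta-spectrin gene Sptb was not called (1010 ± 7.80 and 1468 ± 169 CPM, edgeR adjusted p = 0.0573). Genes higher in delta45 included Cd44, an adhesion receptor that declines in red cell maturation (70.5 and 13.7 CPM in delta45 and FL), and the nucleoside transporter Slc29a1 (129 and 29.1 CPM).

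Other genes of erythroid maturation were mostly higher in FL, 24 of 41 against 4, with a median of 0.89. They included Cited2 (191 and 1056 CPM in delta45 and FL), the carbonic anhydrase gene Car2 (668 and 1462 CPM), Bcl2l1, which keeps late erythroblasts alive (35.5 and 165.0 CPM), and the ubiquitin enzymes Ube2h and Ube2o (log2 2.01 and 1.70). Car1, the other abundant red cell carbonic anhydrase, did the reverse and had the largest fold toward delta45 among the named genes read in both lines. Its levels were 22.4, 21.6 and 19.8 CPM in delta45 and 0.208, 0.233 and 0.412 CPM in FL, with 11 reads over the FL libraries. The difference was 66.6-fold (log2 -6.06 ± 0.253, edgeR adjusted p = 1.6e-09). Control held 495 ± 78.0 CPM of Car1 and KD 2.72 ± 0.601 CPM. Pklr, the red cell pyruvate kinase gene, was also higher in delta45 (38.9 and 19.2 CPM in delta45 and FL).

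Partners of LDB1 were found on both sides. Of 27 tested members of the LDB1 complex list, 10 were higher in FL and 7 higher in delta45 (6 and 9 with library totals only), with a median of 0.02. Ldb1 itself belongs to this list and is counted among the 10. Gata1 was at 465.3, 480.7 and 474.2 CPM in delta45 and 871.6, 938.7 and 972.2 CPM in FL, 1.96-fold apart with no overlap (edgeR adjusted p = 0.00011). Tal1 differed 2.39-fold (755 ± 8.82 and 1807 ± 32.6 CPM in delta45 and FL), and the corepressor gene Cbfa2t3 (ETO2) 2.53-fold. Lmo2, the bridging LIM protein, was not called (79.2 ± 1.36 and 80.0 ± 1.27 CPM, edgeR adjusted p = 0.937), nor was the erythroid factor Klf1 (229 ± 45.2 and 257 ± 31.4 CPM, adjusted p = 0.575). On the delta45 side the largest fold was that of Id3, an inhibitor of E-box binding factors, at 0.656, 1.21 and 1.44 CPM in delta45 and 0.312, 0.116 and 0.177 CPM in FL. It was 5.17-fold higher in delta45 at these low levels (log2 -2.37 ± 0.512, edgeR adjusted p = 0.00162). The repressor Gfi1b and the cofactor Ssbp3 were higher in delta45 by less (log2 -0.79 and -0.50). Of 16 FOG1 and NuRD genes, which form a repressive partner complex of GATA1, 7 were higher in FL and 4 higher in delta45 (5 and 7 with library totals only). FOG1 itself (Zfpm1) was at 919 and 1841 CPM in delta45 and FL, and the remodeller Chd3 at 64.4 and 215.9 CPM.

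Regulators of the progenitor state included genes with larger folds. Myb (ENSMUSG00000019982), a factor that holds erythroid progenitors in cycle, was at 98.8, 92.1 and 90.1 CPM in delta45 and 2.71, 3.02 and 2.06 CPM in FL. The lines differed 37.0-fold (log2 -5.21 ± 0.374, edgeR adjusted p = 1.1e-07). Myb in control (61.1 ± 5.74 CPM) and KD (66.4 ± 37.5 CPM) was nearer to delta45. Myc, which drives growth and ribosome production, was at 418.9, 479.2 and 477.3 CPM in delta45 and 103.2, 127.1 and 125.2 CPM in FL. It was 3.87-fold higher in delta45 (log2 -1.95 ± 0.159, edgeR adjusted p = 3.58e-07), with FL close in level to control at 112 ± 2.73 CPM. Factors that were higher in FL included Foxo3 (357 and 1156 CPM in delta45 and FL), Nfe2 (159 and 608 CPM), the MYC antagonist Mxi1 (55.6 and 213.8 CPM) and Meis1 (21.0 and 85.7 CPM). Mxd3, of the same family as Mxi1, went the other way by a larger fold (34.8 and 2.70 CPM in delta45 and FL, log2 -3.69). Over the list of erythroid transcription factors and repressors, 16 of 42 were higher in FL and 10 higher in delta45 (12 and 15 with library totals only), and over stem and progenitor genes 6 and 2 of 13.

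Genes of DNA replication were higher in delta45 almost throughout, 52 of 56 tested with 0 higher in FL, and 50 past 1.5-fold. Mcm6, a subunit of the replicative helicase, was at 381.8, 354.9 and 365.9 CPM in delta45 and 45.6, 44.2 and 52.4 CPM in FL. The lines were 7.74-fold apart (log2 -2.95 ± 0.103, edgeR adjusted p = 7.23e-10). DNA ligase Lig1 differed 8.54-fold, the maintenance methylation factor Uhrf1 12.3-fold, and polymerase epsilon Pole (log2 -3.61), Clspn (-3.30) and Timeless (-3.13) were in the same direction. FL had the lowest of the 4 group means for 52 of the 56 genes, where 25.4% of all tested genes had it lowest. With 52 of the 56 already called lower in FL than in delta45, that 25.4% is not a like baseline. The mean of delta45 was the highest for 37 of the 56.

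Mitosis and kinetochore genes gave 58 of 60 higher in delta45 and 1 higher in FL (2 without FL replicate 1 or delta45 replicate 2). Mki67, the proliferation antigen, was at 2133, 1796 and 1842 CPM in delta45 and 407.3, 289.5 and 290.4 CPM in FL (5.85-fold, edgeR adjusted p = 8.74e-07). Cyclin A2 gene Ccna2 differed 6.04-fold, separase Espl1 by a log2 of -3.33 and the condensin gene Ncapd2 by -2.41. The member higher in FL was Cdc25b, a phosphatase of mitotic entry (319 and 590 CPM in delta45 and FL). FL had the lowest group mean for 57 of 60 genes, but the highest lay in control for 32 and in delta45 for 26. Repair genes gave 30 of 32 higher in delta45 and 0 higher in FL, among them Rad54l and Exo1 with log2 differences of -3.05 and -3.67.

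Cell cycle inhibitors and G1 regulators did not move as a list, with 13 of 36 higher in FL and 15 higher in delta45. Its members higher in FL include inhibitors and antiproliferative genes: Btg2 (514 and 2026 CPM in delta45 and FL), Ccng2 (77.5 and 468.7 CPM), Cdkn2b (12.4 and 49.4 CPM) and Gadd45a (74.7 and 232.4 CPM). On the delta45 side were the E2F factors that act in S phase, E2f1, E2f7 and E2f8 (log2 -1.85, -3.14 and -3.16), and the pocket protein gene Rbl1 (-2.44).

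Promoters of 2 replication genes are shown with the E2F-type letters TTTNNCGC on either strand in capitals, from RefSeq GRCm38.p6 as above. Mcm6 lies on the minus strand (chr1:128359706-128359955), with 3 matches, and Uhrf1 on the plus strand (chr17:56303087-56303336), with 1 match.
Mcm6: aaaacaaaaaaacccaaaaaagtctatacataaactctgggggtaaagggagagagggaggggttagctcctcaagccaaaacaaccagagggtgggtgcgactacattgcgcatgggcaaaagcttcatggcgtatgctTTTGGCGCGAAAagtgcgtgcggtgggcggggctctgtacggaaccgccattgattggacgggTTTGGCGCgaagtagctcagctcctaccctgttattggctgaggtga
Uhrf1: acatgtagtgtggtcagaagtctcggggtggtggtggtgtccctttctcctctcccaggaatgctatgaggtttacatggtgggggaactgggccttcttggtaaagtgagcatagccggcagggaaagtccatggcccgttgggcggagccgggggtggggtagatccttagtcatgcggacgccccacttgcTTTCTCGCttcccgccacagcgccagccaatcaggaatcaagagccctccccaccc
TTTNNCGC was found in 7.42% of all 9094 promoters, in 10.3% of those of genes past 1.5-fold with delta45 higher and in 4.81% with FL higher. Among replication genes 11 of 46 promoters held it (23.9%), and among mitosis genes 10 of 51 (19.6%). The MYC E-box letters CACGTG were at 8.56% overall and 8.7% in the ribosome biogenesis list.

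Ribosome biogenesis genes, which make and process ribosomal RNA in the nucleolus, were 46 of 53 higher in delta45 and 0 higher in FL. Polr1b, a core subunit of RNA polymerase I, was at 139.6, 138.5 and 134.5 CPM in delta45 and 40.8, 38.8 and 41.9 CPM in FL (3.39-fold, edgeR adjusted p = 1.76e-08). The processing factor Heatr1 was 3.94-fold higher in delta45. Srm, a spermidine synthase gene that does not itself make or process ribosomal RNA, was 6.2-fold higher in delta45. Here delta45 had the highest group mean for 46 of 53 genes (27.4% of all tested genes), and the lowest lay in control for 29 and in FL for 21. With 46 of the 53 already called higher in delta45 than in FL, that 27.4% is not a like baseline. Genes for the ribosome itself were mixed. Of 77 cytosolic ribosomal protein genes, 21 were higher in FL and 13 higher in delta45, but 11 and 12 without FL replicate 2 and 7 and 17 with library totals only. Delta45 had the lowest mean for 49 of these 77 genes and control the highest for 56. Many ribosomal protein genes have near-identical copies in the genome, and their counts are uncertain for that reason.

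Amino acid supply and tRNA charging leaned the same way as ribosome biogenesis, with 31 of 40 higher in delta45 and 2 higher in FL. The cystine importer Slc7a11 was at 10.15 ± 1.895 CPM in delta45 and 0.649 ± 0.184 CPM in FL. Arginine transporter Slc7a1 differed by a log2 of -2.50, glutamine transporter Slc1a5 by -1.67, the folate enzymes Shmt1, Shmt2 and Mthfd2 by -1.99, -1.61 and -1.63, and the tRNA synthetases Iars and Tars by -1.60 and -1.16. The members higher in FL were Ppp1r15a and Sesn2 (log2 0.97 and 0.54). Splicing factors were higher in delta45 for 30 of 56 and higher in FL for 5, by smaller folds (median -0.44, 8 and 3 past 1.5-fold).

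**Figure D3:**
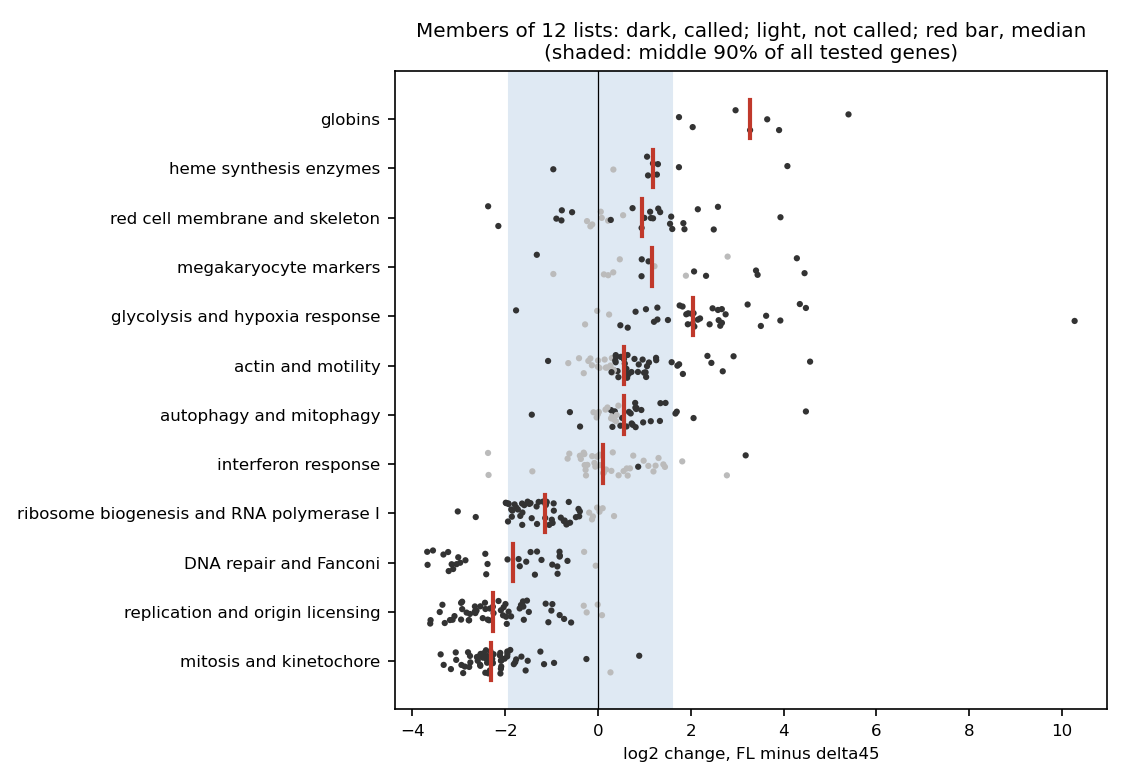
Log2 difference (x axis, FL minus delta45) of every tested member of 12 lists; dark points passed the edgeR test, light points did not, red bars are list medians and the shaded band holds the middle 90% of all tested genes. Medians of replication, mitosis and repair lie at -2.26, -2.30 and -1.83, that of globins at 3.28, and glycolysis and hypoxia genes reach from -1.77 (Car9) to 10.27 (Egln3).

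Glycolysis and the hypoxia response set the lines apart with a different order of groups. Of 38 tested genes, 34 were higher in FL, 31 of them past 1.5-fold, and 1 was higher in delta45. Aldoa, an aldolase of the glycolytic pathway, was at 278.9, 313.8 and 327.9 CPM in delta45 and 3419, 3778 and 4132 CPM in FL. This 12.3-fold difference (log2 3.62 ± 0.23, edgeR adjusted p = 3.54e-08) arose with control at 4755 ± 735 CPM and KD at 2932 ± 951 CPM. Delta45 had the lowest of the 4 group means for 33 of the 38 genes, against 27.4% of all tested genes. With 34 of the 38 already called lower in delta45 than in FL, that 27.4% is not a like baseline. The highest mean lay in control for 16, in KD for 13 and in FL for 8. Summed over the list, delta45 libraries held 3769 to 3916 CPM, FL 15750 to 17420, KD 11800 to 18840 and control 15560 to 19260.

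Along the pathway, the glucose transporter Slc2a1 was at 17.2, 22.4 and 21.0 CPM in delta45 and 113.9, 127.6 and 120.8 CPM in FL (5.996-fold, edgeR adjusted p = 2.24e-06). Slc2a3 (log2 2.67), Gpi1 (2.15), Aldoc (3.51), Pgam1 (3.93) and Eno2 (2.40) were higher in FL as well. Ldha, which turns pyruvate into lactate, was at 252 ± 7.71 CPM in delta45 and 1529 ± 121 CPM in FL, and was named after its values were seen. Hk1, the main hexokinase of red cells, was not called (640 ± 3.92 and 632 ± 10.2 CPM, edgeR adjusted p = 0.923). Pyruvate dehydrogenase kinase genes Pdk1 and Pdk2, which hold pyruvate back from the citric acid cycle, differed by log2 1.93 and 1.72. Several of these genes, among them Pgam1, have pseudogene copies that can take reads, so their levels are less certain than their direction in these libraries.

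The list also holds targets of hypoxia-inducible factor outside glycolysis. Bnip3, a mitophagy receptor, was at 7.22, 7.28 and 7.80 CPM in delta45 and 139.7, 182.9 and 174.5 CPM in FL (22.3-fold, edgeR adjusted p = 7.07e-09). Egln3, an oxygen-sensing prolyl hydroxylase, had the largest fold of all genes named by rule: 158.2, 161.1 and 158.6 CPM in FL and 0.141, 0.128 and 0.0757 CPM in delta45, with 6 reads over those 3 libraries (log2 10.27 ± 0.34, edgeR adjusted p = 1.9e-09). Egln3 had 0 reads in control and 64.8 ± 20.4 CPM in KD, an order of groups other than that of Aldoa. Ndrg1 was at 28.9 and 160.1 CPM in delta45 and FL. Outside the list, Ndufa4l2, a respiratory chain protein known to be induced by hypoxia, was at 0.949 and 142.6 CPM, and Txnip, a glucose-responsive arrestin, was at 166 ± 1.27 CPM in delta45 and 4095 ± 42.7 CPM in FL. Car9 was the list member higher in delta45, under 1 CPM in both lines.

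The hypoxia letters ACGTGC were found on either strand in 14 of 34 promoters of this list (41.2%) and in 6.85% of all 9094. Their share was 6.67% for genes past 1.5-fold with FL higher and 7.62% with delta45 higher. Bnip3 (minus strand, chr7:138909507-138909756), with 2 matches that overlap, and Pgam1 (plus strand, chr19:41911621-41911870), with 1, are printed with the matches in capitals.
Bnip3: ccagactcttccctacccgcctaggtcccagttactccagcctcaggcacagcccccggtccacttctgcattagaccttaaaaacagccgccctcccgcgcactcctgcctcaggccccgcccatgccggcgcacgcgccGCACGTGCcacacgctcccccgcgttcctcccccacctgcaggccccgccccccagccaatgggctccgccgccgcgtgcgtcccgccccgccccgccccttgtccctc
Pgam1: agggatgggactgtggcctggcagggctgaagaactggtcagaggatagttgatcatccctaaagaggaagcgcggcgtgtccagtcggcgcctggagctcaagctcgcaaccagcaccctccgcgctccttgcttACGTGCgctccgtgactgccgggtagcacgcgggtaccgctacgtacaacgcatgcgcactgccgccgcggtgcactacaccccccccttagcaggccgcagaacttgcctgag

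**Figure D4:**
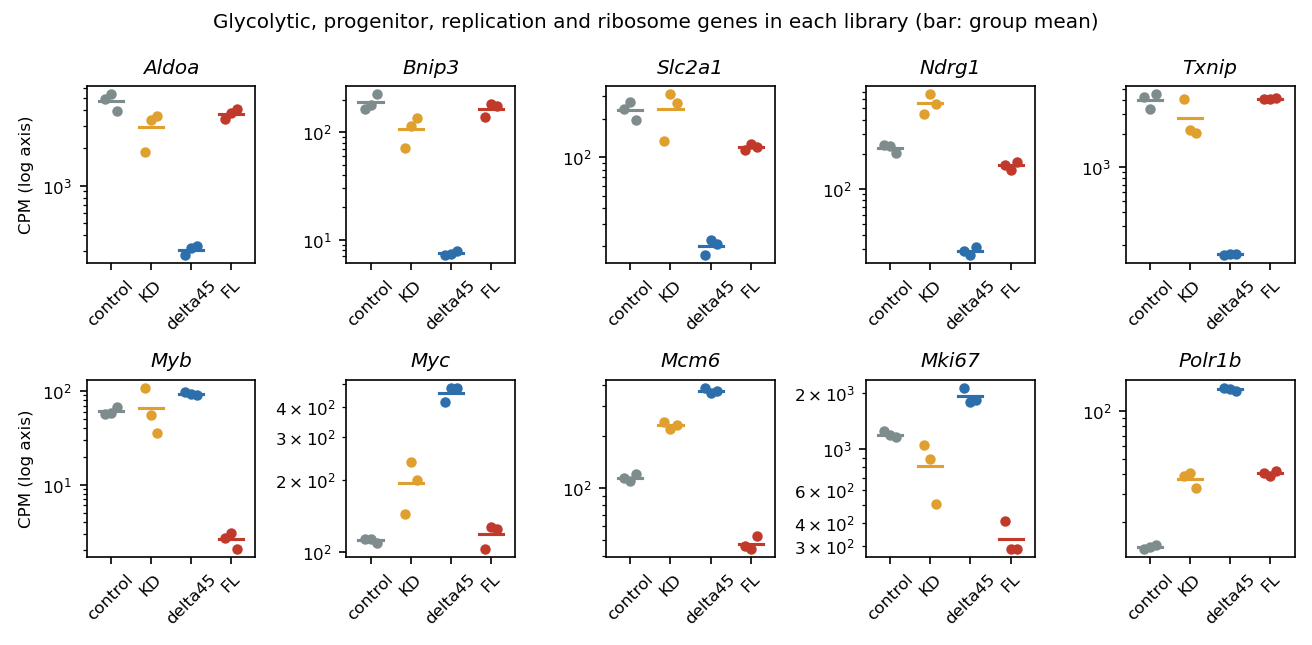
CPM (log axis) of 10 genes in each of the 12 libraries, 3 per group, with a bar at the group mean. Aldoa, Bnip3, Slc2a1, Ndrg1 and Txnip are lowest in delta45, whereas Myb, Mcm6 and Mki67 are lowest in FL and Polr1b and Myc highest in delta45.

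The mitochondrial lists had medians near 0. Of 76 respiratory chain and ATP synthase genes, 17 were higher in FL and 5 higher in delta45 (2 without delta45 replicate 2, and 3 without FL replicate 2 or delta45 replicate 1), but this balance turned to 8 and 15 with library totals only. The fit to the 6 libraries gave 32 and 9. The median was 0.17. Mitochondrial ribosomal protein genes gave 7 higher in FL and 23 higher in delta45 of 75. The former number was 3 without FL replicate 2 or 3 and 4 without delta45 replicate 1. In the citric acid cycle 8 of 23 were higher in FL and 5 higher in delta45 (3 without delta45 replicate 3), or 7 and 8 with library totals only.

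Autophagy and mitophagy genes, which clear organelles from maturing red cells, were higher in FL for 25 of 40 and higher in delta45 for 3. Besides Bnip3 and Foxo3, the mitophagy receptor Bnip3l was at 156.1, 158.3 and 155.3 CPM in delta45 and 614.8, 667.2 and 674.1 CPM in FL (4.17-fold, edgeR adjusted p = 4.87e-07). The lipid transfer scaffold Atg9a differed by a log2 of 1.45 and Wipi1 by 1.33. The kinase gene Ulk1, which starts autophagosome formation, was higher in delta45 (158 and 104 CPM in delta45 and FL). Lysosomal genes gave 17 higher in FL and 9 higher in delta45 of 45, or 14 and 17 with library totals only.

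Actin and motility genes gave 39 of 57 higher in FL and 1 higher in delta45, with a median of 0.56, and 25 higher with scaling by library totals only. Tmsb4x, a thymosin that buffers actin monomers, was at 184.7, 174.3 and 183.5 CPM in delta45 and 4056, 4263 and 4556 CPM in FL (23.7-fold, edgeR adjusted p = 2.23e-08). KD held 537.5 CPM of Tmsb4x, and control had 0 reads of it. Gelsolin gene Gsn was at 49.3 and 252.6 CPM in delta45 and FL, Arhgdib at 16.2 and 123.0 CPM and Was at 34.8 and 113.8 CPM. The filamin gene Flna went the other way (374 and 178 CPM).

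Receptors and kinases of blood cell signalling were higher in FL for 29 of 51 and higher in delta45 for 9. The shared beta chain of the interleukin-3 family receptors, Csf2rb, was at 459.2, 459.3 and 459.3 CPM in delta45 and 2691, 2345 and 2536 CPM in FL. Its close copy Csf2rb2 was 10.1-fold higher in FL, and reads of the 2 genes can be exchanged. Prkcq (log2 2.67), Vav1 (2.12), Btk (2.03) and the chemokine receptor Ccr2 (6.43, at 0.16 and 14.5 CPM in delta45 and FL) were higher in FL too. Il10ra, a cytokine receptor chain outside the list, was at 0.571 ± 0.0399 CPM in delta45 and 86.8 ± 7.34 CPM in FL. The chemokine receptor Cxcr4 was higher in delta45 (36.6 and 5.06 CPM in delta45 and FL), as was Il6ra (5.12 and 0.784 CPM).

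Markers of other blood and tissue cells were read to see which classes moved along. Megakaryocyte markers, genes of the platelet lineage that shares progenitors with red cells, were 9 of 18 tested higher in FL and 1 higher in delta45. Their summed level was 1086 to 1178 CPM in delta45, 7946 to 8572 in FL, 1579 to 1929 in KD and 1978 to 2240 in control. Most of the FL sum is Plek and Itga2b, with means of 4545 and 2136 CPM there. Itga2b, the platelet integrin chain, was at 102.8, 109.3 and 116.9 CPM in delta45 and 2080, 2200 and 2127 CPM in FL (19.5-fold, edgeR adjusted p = 1.07e-10). FL was also 21.9-fold higher for Pf4, a chemokine of platelet granules, and 10.6-fold higher for Plek. The receptor subunits Gp1ba (44.5 and 186.8 CPM in delta45 and FL) and Itgb3 (2.24 and 24.5 CPM) were higher in FL too. Other defining platelet genes were near 0, with Ppbp, Gp6, Thbs1 and Tubb1 under 0.3 CPM in both lines, Gp5 was not called (26.1 and 28.45 CPM), and 5 of 26 list members had no reads in either.

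For myeloid markers 4 of 10 tested were higher in FL and 0 higher in delta45, with summed levels of 492.3 to 515.9 CPM in delta45 and 2432 to 2745 in FL. Most of that sum is Csf2rb. The factor Spi1 was at 2.98 and 13.2 CPM in delta45 and FL, Mpo at 0.128 and 1.19 CPM, while S100a8, S100a9, Itgax and Cybb had no reads in either line. Mast and basophil markers gave 4 of 10 higher in FL and 1 higher in delta45 (summed 135.0 to 160.8 and 209.6 to 236.3 CPM). Lymphoid markers gave 2 and 2 of 7 (summed 11.8 to 12.6 and 10.6 to 16.2 CPM), with Cd8a and Pax5 without reads. Stromal and endothelial markers gave 4 and 0 of 9 (summed 28.4 to 33.2 and 80.7 to 89.2 CPM), mainly Vim, with Cdh5, Dcn and Tie1 without reads. Their part in the other differences was not tested.

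Stress lists were mixed. Heat shock proteins gave 4 of 19 higher in FL (2 without FL replicate 3 or delta45 replicate 3) and 8 higher in delta45, where the mitochondrial chaperone Hspd1 was at 258 and 73.2 CPM in delta45 and FL. Chaperones of the endoplasmic reticulum gave 5 and 10 of 23, and antioxidant genes 9 and 15 of 36. In the latter, Gpx4, which removes lipid peroxides, was at 39.1 and 168.2 CPM and Nqo1 at 20.0 and 6.11 CPM in delta45 and FL. Cholesterol and fatty acid synthesis gave 7 and 11 of 34, and the proteasome 11 (7 without FL replicate 3) and 5 of 40, which turned to 4 and 15 with library totals only. Targets of p53 and regulators of cell death gave 15 and 6 of 33 (9 and 10 with library totals only), among them Mdm2, Bak1 and Bcl2l11 with log2 differences of 1.24, 1.23 and 1.04.

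Among 43 interferon response genes 2 were called, Ifi27 and Rsad2, both higher in FL, and any 1 delta45 library left out gave 1 call. A fit to the 6 FL and delta45 libraries alone gave 16 higher in FL and 7 higher in delta45. The summed level was 1183 to 1212 CPM in delta45 and 1412 to 1479 CPM in FL, but 1745 to 22230 CPM over the KD libraries, whose spread enters the fit to all 12. Antigen presentation genes gave 3 of 22 higher in FL (11 in the fit to 6 libraries) and 2 higher in delta45, 1 when any of the 6 libraries was left out, and 2 and 3 with library totals only.

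By size alone, the largest folds toward FL after Egln3 included Vrtn, with 1 read over the delta45 libraries and 15.9 ± 1.58 CPM in FL. Its ratio was 816, with an exact 95% interval of 146 to 32280 that covers counting error only. Vash1, an angiogenesis inhibitor, had 3 delta45 reads and a ratio of 345 (118 to 1675). Adra2a, an adrenergic receptor, was at 14.99 ± 1.682 CPM in delta45 and 731.9 ± 48.9 CPM in FL. On the delta45 side stood the neuronal nitric oxide synthase gene Nos1 (15.3 and 0.303 CPM in delta45 and FL), the nucleotide enzyme Dctd (31.6 and 0.704 CPM), Tgfbr3 (8.46 and 0.206 CPM), the inflammatory caspase Casp4 (13.1 and 0.266 CPM) and Angpt1 (12.4 and 0.711 CPM). By difference in CPM, the delta45 side was led by Mki67, followed among others by the methyltransferase Dnmt1 (1274 and 323 CPM), topoisomerase Top2a (1117 and 230 CPM) and nucleolin Ncl (1108 and 503 CPM).

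Control against KD shares no library with this comparison, and its values stand beside it. Both come from the same fit, with 1 estimate of spread per gene, so the calls of the 2 comparisons are not independent. There, 6380 of the 12837 genes passed (49.7%), 3097 higher in control (24.1%) and 3283 higher in KD (25.6%). Of the 1452 genes past 1.5-fold with FL higher, 510 (35.1%) were higher in control and 330 (22.7%) higher in KD. Of the 1781 with delta45 higher, 302 (17.0%) were higher in control and 634 (35.6%) higher in KD. Across all 12837 genes, which are not independent replicates, Pearson's r of the 2 log2 differences was 0.055. The lists did not keep one order. Globins had medians of 3.28 for FL minus delta45 and 2.50 for control minus KD, and ribosome biogenesis -1.14 and -0.66. Mitosis genes had -2.30 and 0.52, and glycolysis and hypoxia genes 2.05 and -0.07.

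**Figure D5:**
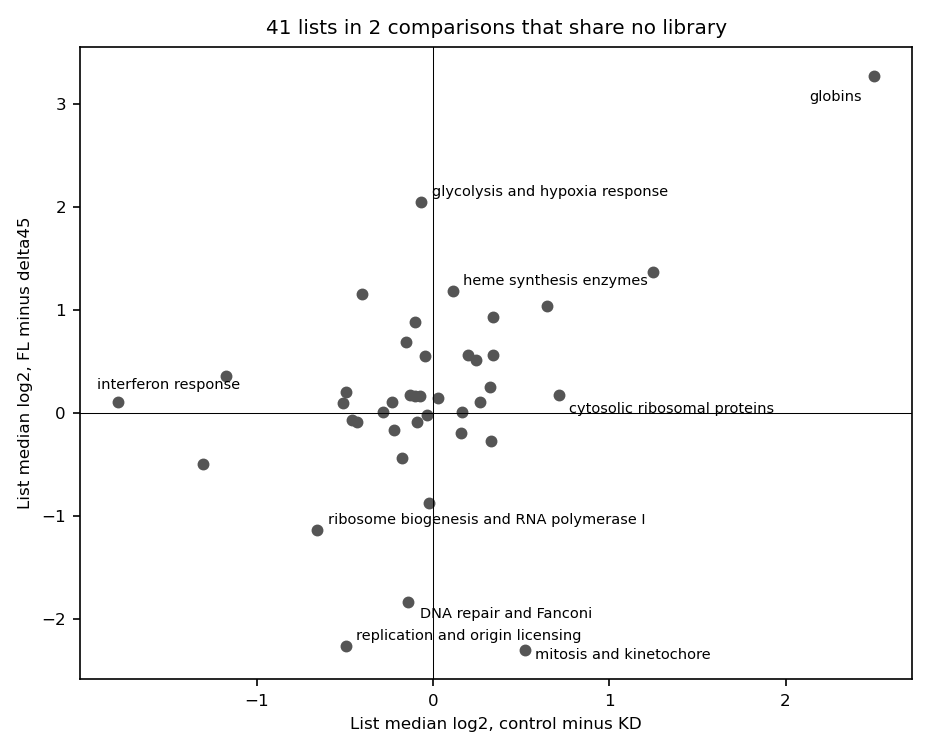
Median log2 difference of each of 41 gene lists for FL minus delta45 (y axis) and control minus KD (x axis), 2 comparisons without a common library. Globins are high on both axes (3.28 and 2.50), mitosis genes lie low on the y axis and right of 0 on the x axis (-2.30 and 0.52), and glycolysis and hypoxia genes are high on the y axis alone (2.05 and -0.07).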

How the data were processed

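The RNA was made into libraries of polyadenylated transcripts with a kit that does not mark strand, so overlapping antisense genes cannot be told apart. Per the submitters' processing notes, which name tools without an order, the tools were TopHat 1.4.1, cutadapt 1.1, DESeq 1.10.1 and HTSeq 0.5.3p9, with genome build mm9. The authors deposited raw counts per gene, 1 value for each of 37991 genes in each library, followed by 5 tallies that name no gene and entered neither library sizes nor tests.

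From these counts, edgeR 4.0.16 (R 4.3.3) fitted all 12 libraries with 1 mean per group after filterByExpr and TMM scaling, which left 12837 genes and 8 residual degrees of freedom. Genes were called by the quasi-likelihood test at an adjusted p under 0.05 over all genes tested, and by glmTreat against 1.5-fold. CPM was computed here with TMM library sizes. The SE printed after a log2 difference is that difference, without its sign, divided by the square root of the test's F statistic. For genes with few reads in 1 line, such as Egln3, Car1 and Id3, it can understate counting error. On simulated counts for 12679 genes, 18, 66, 92 and 98% of genes changed 1.5, 2, 4 and 8-fold were recovered, with 8 false calls. Only 50 genes were changed at each fold, and the 2 lines were set equal elsewhere. Changes of 1.5 and 4-fold were all toward FL, and those of 2 and 8-fold all toward delta45. In the data 52.8% of genes were called, so these shares do not measure recovery there.

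The lists and members were chosen with earlier results of these data known. Named were Ldb1, the globins with reads, up to 15 called genes each way by fold (at least 5 CPM in the higher line) and 10 by CPM difference, both without overlap between the lines. Of each list up to 8 members by adjusted p were named, with up to 3 called against its direction, besides core members that were not called. A few genes that this rule names are not reported here. Alternatives were other scalings and low-count filters, the 6 libraries alone, DESeq2 1.42.0, a replicate block and each library left out.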

Additional observations from a re-analysis of the deposited data

How the results depend on the processing

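The same direction was kept by every gene called in common: under each alternative, 5565 to 6701 of the 6778 called genes were called again and 0 were called in the opposite direction. No named gene reversed, and 19 of them lost their call under at least 1 alternative. With library totals only, genes higher in FL fell to 2097 and genes higher in delta45 were 5084. In that setting members higher in FL became 0 for heme and iron transport, 6 for the LDB1 complex, 3 for stem genes, 7 for cytosolic and 1 for mitochondrial ribosomal proteins, 8 for the respiratory chain, 1 for amino acid stress, 2 for heat shock, 9 for p53 targets, 4 for the proteasome, 3 for splicing, 7 for Pol II and 25 for actin. Members higher in delta45 became 7 for FOG1 and NuRD, 2 for megakaryocyte, 2 for mast and 1 for stromal markers, 40 for mitochondrial ribosomal proteins, 15 for the respiratory chain, 8 for the citric acid cycle, 2 for glycolysis, 16 for ER chaperones, 19 for cholesterol synthesis, 5 for autophagy, 17 for lysosome, 10 for p53 targets, 1 for interferon response, 15 for the proteasome, 22 for Pol II and 4 for actin.

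In the fit to the 6 libraries alone 8370 genes were called. Members higher in FL became 1 for lymphoid markers, 1 for ribosome biogenesis, 13 for mitochondrial ribosomal proteins, 32 for the respiratory chain, 16 for interferon response, 11 for antigen presentation, 10 for splicing and 7 for looping. Members higher in delta45 became 2 for mast and 1 for stromal markers, 9 for the respiratory chain, 11 for p53 targets, 7 for interferon response, 17 for Pol II and 3 for actin. List medians relative to all genes became 3.48 for globins, 1.03 for megakaryocyte and 0.85 for mast markers, and 0.18 for lysosome. DESeq2 gave 2 mast markers higher in delta45, 2 mitosis and 8 splicing genes higher in FL. At 5 CPM in 3 libraries, 2 myeloid markers were higher in FL, and 1 lymphoid marker and 0 glycolysis genes higher in delta45. Medians there were 3.63 for globins, 1.07 for megakaryocyte, 0.84 for mast, 0.11 for lymphoid (reversed) and 1.86 for stromal markers, -0.23 for G1 regulators, -0.89 for amino acid stress and 0.24 for p53 targets, with fewer genes tested. With no low-count filter, 2 mast markers and 1 interferon gene were higher in delta45 and 4 interferon genes higher in FL. Medians there were 2.97 for globins, 0.21 for iron, 0.38 for stem genes, 1.899 for megakaryocyte, 0.33 for myeloid, 0.34 for mast and 0.40 for stromal markers, and 0.47 for signalling. Apart from the filters, which change the genes tested, the cause was not tested.

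With each library left out in turn, which leaves 1 line with 2 libraries, genes higher in FL ranged from 2815 to 3067 and those higher in delta45 from 2902 to 3205. Members higher in FL ranged from 11 to 23 for cytosolic and 3 to 8 for mitochondrial ribosomal proteins, 2 to 4 for heat shock, 1 to 2 for interferon response, 1 to 2 for mitosis and 7 to 10 for the proteasome. Members higher in delta45 ranged from 3 to 5 for the citric acid cycle and 2 to 4 for the respiratory chain, and were 1 for antigen presentation. Medians ranged from 3.16 to 3.67 for globins, 0.083 to 0.29 for FOG1 and NuRD, 0.017 to 0.12 for the LDB1 complex, 0.28 to 0.45 for antigen presentation, -0.92 to -0.84 for amino acid stress, 0.52 to 0.61 for autophagy, 0.61 to 0.75 for signalling, 0.037 to 0.19 for interferon response, 0.24 to 0.29 for iron, -0.81 to -0.035 for lymphoid, 0.52 to 0.93 for mast, 1.06 to 1.34 for megakaryocyte, 0.68 to 1.72 for myeloid and 0.79 to 2.02 for stromal markers, -2.34 to -2.28 for mitosis, 0.15 to 0.28 for p53 targets, 0.07 to 0.18 for the proteasome, 0.87 to 0.99 for the membrane, -2.28 to -2.21 for replication and -1.17 to -1.15 for ribosome biogenesis. That of G1 regulators ranged from -0.17 to 0.05, and reversed to 0.05 without FL replicate 1 and to 0.04 without delta45 replicate 2.

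The labels give both lines replicates 1 to 3, but the numbers share no stated source, and the correlations of same-numbered deviations were 0.36, 0.25 and 0.07. Each FL library correlated best with the delta45 library of its own number, but the reverse did not hold. For delta45 replicate 3 the correlation was higher with FL replicate 2 (0.19) than with FL replicate 3 (0.07). With the replicate block, 3392 genes were higher in FL and 3544 higher in delta45.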
